A study of Mus musculus with 36 samples.

Results

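Epididymal white adipose tissue (eWAT) of ligatured CCL19-KI mice was compared between a 60% and a 40% high-fat diet (HFD). The comparison rests on 6 of the 36 RNA-seq libraries of the series, 3 mice on each diet, taken by their labels. In the CCL19-KI mouse (Adipoq-CCL19-KI in the labels, strain C57BL/6), the gene of the chemokine CCL19 had been placed at the locus of the adipocyte gene *Adipoq*, and both groups carried this allele. Periodontitis had been induced in both groups by a ligature around a molar (ligature-induced periodontitis, LIP) for 2 weeks, and the labels give 10 weeks of feeding. The design text of the series speaks instead of mice aged 14 weeks that were fed for 8 weeks, which would be the time before the ligature. The mice were males, per the study's methods, and lymph nodes had been removed from the eWAT. The same diet difference was set beside it in ligatured wild-type (WT) mice, which were bred separately, and in CCL19-KI mice whose labels name no ligature. The 3 ligatured CCL19-KI mice fed a normal diet (ND) are given as the background without an HFD.

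White adipocytes store triglyceride, and during fat feeding they enlarge, secrete leptin and draw in macrophages. Macrophages that surround dying adipocytes take up lipid and switch on lysosomal and lipid-handling genes, and are known as lipid-associated macrophages. Adipocytes also make fatty acids from glucose (de novo lipogenesis) and cholesterol by a chain of enzymes under the transcription factors of the SREBP family. CCL19 is a chemokine that guides dendritic cells and T cells through its receptor CCR7.

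Values are normalized CPM (counts scaled to library size), and a difference is that of log2(CPM + 1), 60% minus 40% HFD, with its standard error (SE), from a limma fit of the 18 ligatured mice. A gene was called at an adjusted p below 0.05 over the 16653 genes tested. Beside this, genes were counted by the study's criteria of an unadjusted p up to 0.05 and a ratio from 1.5 upwards or from 0.67 downwards. The 6 libraries held 12824995 to 21581595 reads, with a median of 12966362 on the 40% HFD and 17535946 on the 60% HFD, and 1 read was worth 0.0490 to 0.0752 CPM. The chi-square per degree of freedom was at least 32.5 for each of the 15 pairs of these libraries and at least 16.9 for the 630 pairs of the series, so none was a copy of another. The labels do not say whether the mice of a group shared a cage or a litter. The SE and the limma p-values rest on the spread between mice within groups, pooled over the 18 ligatured mice and not over the 6 compared alone. In bulk eWAT, fewer cells of a type and less RNA per cell cannot be told apart.

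The libraries were first checked against marker lists. Adipocyte markers were high in all 6 mice (list mean of log2(CPM + 1) 8.72 to 9.97). The epididymal list, with 3 of its 12 genes without a read in the 6 libraries, was near 0, with list means of 0.00821 to 0.0506 on the 40% HFD and 0.0974 to 0.262 on the 60% HFD. Markers of other tissues were present. The list mean of 20 hepatocyte markers was 8.23, 10.4 and 6.73 in the 3 mice on the 40% HFD and 9.49, 9.21 and 6.42 on the 60% HFD. The ranges overlapped, the median difference of the list was 0.00, and none of its 20 genes met the criteria. *Alb* (albumin) alone ranged from 1724 to 26901 CPM on the 40% HFD and from 1337 to 12274 CPM on the 60% HFD. In contrast, skeletal muscle markers differed between the diets without overlap. Their list mean was 1.06, 1.09 and 1.74 on the 40% HFD and 2.08, 2.34 and 2.72 on the 60% HFD, and it was 2.74 to 4.86 in the ligatured ND-fed CCL19-KI mice. Mesothelial markers, from the cells that cover the fat pad, had list means of 5.68, 5.45 and 6.64 on the 40% HFD and 3.95, 6.10 and 5.07 on the 60% HFD. All 10 of them had a negative difference (median -1.01), but the groups overlapped for each gene. *Msln* (-1.22) and *Gpm6a* (-1.21), 2 of the 10, met the criteria as lower, against 0.955% of all genes. The median was -0.35 without mouse 1 and -1.61 without mouse 2 of the 60% HFD, and -0.60 without mouse 3 of the 40% HFD.

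**Figure D1:**
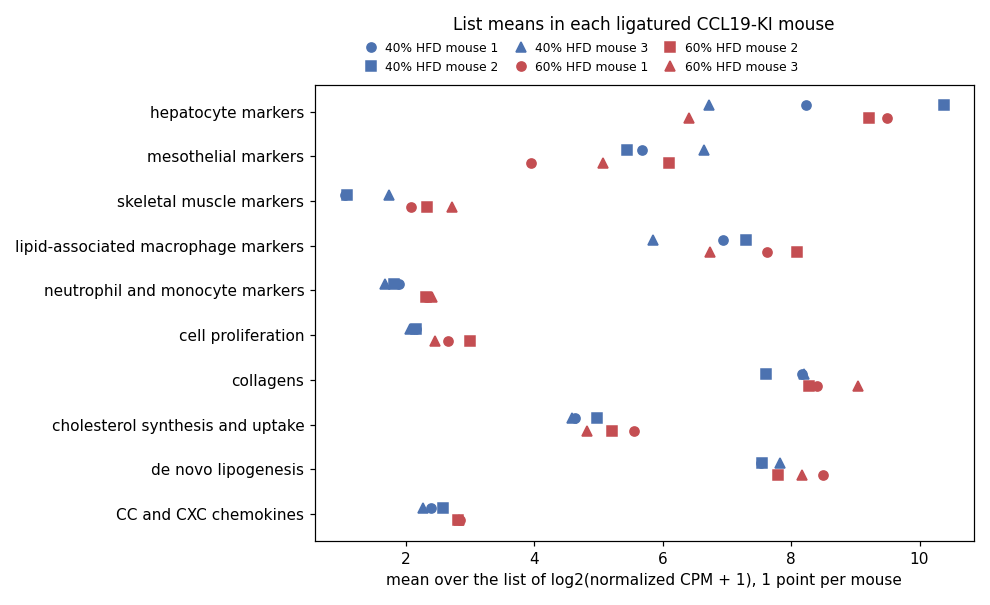
Mean over each gene list of log2(normalized CPM + 1) on the horizontal axis, with 1 point per ligatured CCL19-KI mouse, coloured by diet and shaped by mouse number. Hepatocyte and mesothelial lists vary widely within each diet, whereas the skeletal muscle, neutrophil and monocyte, proliferation, collagen and chemokine lists do not overlap between the diets. The cholesterol, de novo lipogenesis and lipid-associated macrophage lists overlap between the diets.

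Of the 16653 genes, 15 were called higher on the 60% HFD (0.0901%) and 1 was called lower (0.00600%). By the study's criteria, 442 genes (2.65%) were higher and 159 (0.955%) lower. The groups did not overlap for 1500 genes with higher values (9.01%) and for 1228 with lower values (7.37%) on the 60% HFD. The median difference over all genes was 0.01, and 52.3% of them had a positive difference. An unadjusted p below 0.05 was found for 1534 genes. The calls were fragile. Without a mouse they numbered from 0 to 9, with 0 when mouse 1 or 3 of the 60% HFD or mouse 3 of the 40% HFD was left out, and 1 without mouse 2 of the 40% HFD.

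The largest called rise was that of *Ubd* (ubiquitin D, FAT10), a ubiquitin-like modifier induced by inflammatory cytokines. It was at 22.3, 19.6 and 3.80 CPM in the 3 mice on the 40% HFD and at 138, 116 and 125 CPM on the 60% HFD, and at 0.553 to 1.06 CPM in the ND-fed mice. The difference was 3.27 ± 0.55 (SE, n = 3 per group), with an adjusted p of 0.0352. *Itgad*, the integrin subunit alpha D of leukocytes, was at 1.5, 1.91 and 0.439 CPM on the 40% HFD and at 19.5, 16.9 and 15.7 CPM on the 60% HFD (3.06 ± 0.48, adjusted p = 0.0270). Every mouse on the 60% HFD exceeded every mouse on the 40% HFD for both genes, and *Itgad* was at most 0.123 CPM in ND-fed mice.

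*Otop1* had the smallest p of all genes. It encodes otopetrin 1, a proton channel that is known to be induced in fat of obese mice. Its values were 1.88, 1.06 and 0.877 CPM on the 40% HFD and 10.8, 9.76 and 12.1 CPM on the 60% HFD, which gave 2.41 ± 0.31 (adjusted p = 0.0229). In 2 of the 3 ND-fed mice it had no read. It is a member of the thermogenic list, in which the median difference was 0.43. Of its 11 tested genes, 1 was called and 2 met the criteria as higher, against 0.0901% and 2.65% of all genes. The defining gene of brown fat, *Ucp1*, was at most 0.736 CPM in the 6 mice and was not tested.

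Further called genes act in lipid handling. *Nsdhl*, a sterol dehydrogenase of cholesterol synthesis, was at 15.6, 14.5 and 17.9 CPM on the 40% HFD and at 59.3, 32.9 and 44.5 CPM on the 60% HFD (1.42 ± 0.22, adjusted p = 0.0270). ND-fed mice had 13.7 to 14.3 CPM of *Nsdhl*, close to the 40% HFD. *Lipf*, gastric lipase, was at 2.71, 1.48 and 1.02 CPM against 7.85, 5.94 and 15.2 CPM (1.91 ± 0.32, adjusted p = 0.0352). *Acoxl*, an acyl-CoA oxidase-like gene, was at 0.827, 0.495 and 0.512 CPM against 3.68, 2.39 and 7.67 CPM (1.69 ± 0.27). For these 3 genes the groups lay apart, with mouse 3 of the 60% HFD highest for *Lipf* and *Acoxl* and mouse 1 for *Nsdhl*. *Adh6b*, an alcohol dehydrogenase gene, was at 0.752, 0.636 and 0.219 CPM against 3.09, 2.88 and 4.25 CPM (1.53 ± 0.22).

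*Trp53i11*, a gene induced by p53, was at 9.70, 7.92 and 7.82 CPM on the 40% HFD and at 21.1, 17.5 and 23.2 CPM on the 60% HFD (1.19 ± 0.19). *Npl*, which encodes the lyase that splits sialic acid, was at 5.04, 5.09 and 4.82 CPM against 10.2, 13.0 and 12.3 CPM (1.10 ± 0.19). *Fam122b* was at 5.34, 5.66 and 4.24 CPM against 11.4, 8.99 and 15.0 CPM (1.05 ± 0.18). The diets lay apart for each of these genes, and their adjusted p lay between 0.0352 and 0.0447. *Dusp15*, a dual-specificity phosphatase, had 7, 2 and 3 reads on the 40% HFD and 67, 33 and 47 reads on the 60% HFD (1.56 ± 0.27, adjusted p = 0.0428).

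*Myh1*, a myosin heavy chain of fast skeletal muscle, had 1, 1 and 7 reads on the 40% HFD and 37, 62 and 37 reads on the 60% HFD (1.58 ± 0.24, adjusted p = 0.0270). It is a member of the skeletal muscle list, in which 4 of 11 tested genes met the criteria as higher, against 2.65% of all genes. All 11 had a positive difference (median 0.91), against 52.3% of all genes. *Ttn*, the giant sarcomere protein titin, was at 2.26, 2.19 and 17.6 CPM against 17.9, 31.1 and 30.8 CPM (2.21 ± 0.75, adjusted p = 0.389). The remaining called rises, outside the 12 largest and named here after their values were seen, were *Mstn* (0.99), *Maoa* (0.88) and *Gm43366* (0.90). *Mstn* encodes myostatin, the muscle growth inhibitor, and had 7, 3 and 2 reads against 36, 30 and 17 reads. *Maoa*, monoamine oxidase A, was at 68.8, 44.2 and 50.2 CPM against 93.5, 96.8 and 108 CPM. With the muscle list mean of each mouse as a covariate, chosen after seeing the data, no gene was called and 947 had an unadjusted p below 0.05. Some differences stayed near their size, with 3.51 for *Ubd*, 3.23 for *Itgad*, 2.38 for *Otop1*, 1.39 for *Nsdhl* and -1.32 for *Chrdl1*, and *Myh1* differed by 1.18. Other values moved. The macrophage median went from 0.25 to -0.05 and the smooth muscle median from 0.50 to -0.28. Genes that met the criteria as higher went from 8 to 5 for cholesterol and from 6 to 2 for proliferation. The collagen median stayed at 0.60, and that of lipid-associated macrophages was 1.12. Since the muscle list mean itself separated the diets, the covariate and the diet cannot be told apart here.

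**Figure D2:**
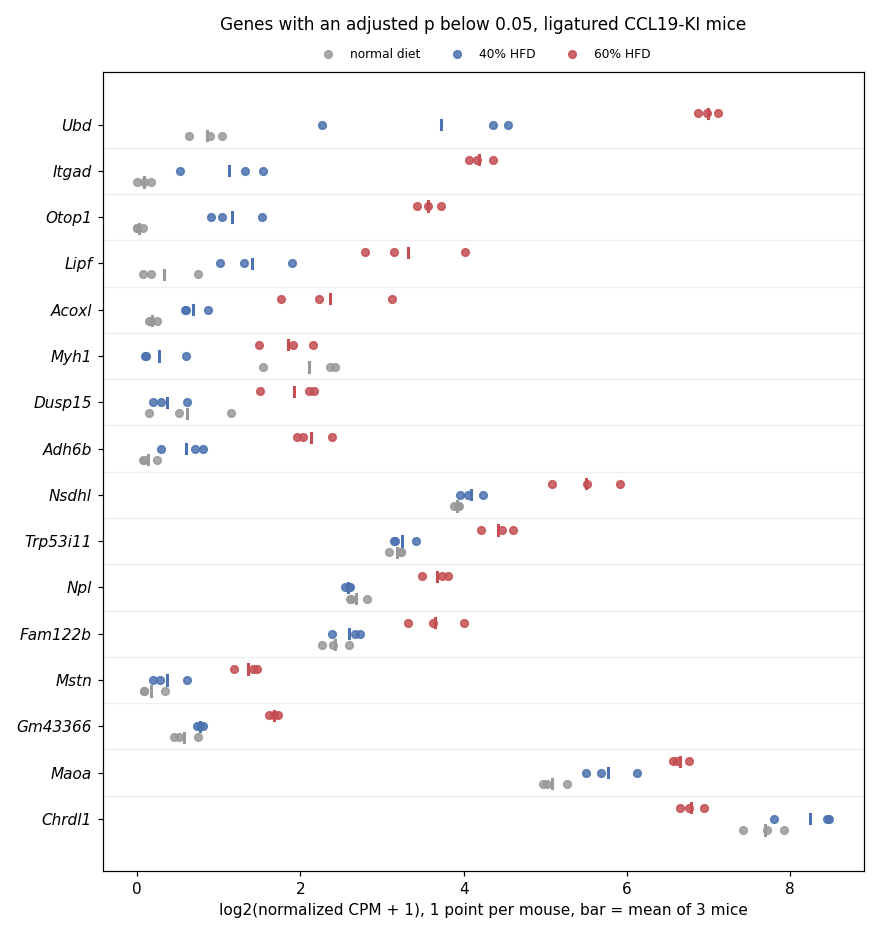
The 16 called genes in ligatured CCL19-KI mice, as log2(normalized CPM + 1) with 1 point per mouse and a bar at the mean of 3 mice, for the normal diet (grey), the 40% HFD (blue) and the 60% HFD (red). The red points lie right of the blue ones for 15 genes and left of them for *Chrdl1*.

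The 1 called fall was *Chrdl1*, which encodes chordin-like 1, a secreted antagonist of BMP4. Its values were 350, 223 and 355 CPM on the 40% HFD and 107, 99.3 and 122 CPM on the 60% HFD, with 170 to 242 CPM in ND-fed mice. It fell by 1.46 ± 0.22 on the log2 scale (adjusted p = 0.0270). Among genes whose groups did not overlap, the other 11 of the 12 largest decreases were below the call and met the study's criteria. Of them, *Fam13a*, a gene linked to fat distribution, was at 279, 255 and 280 CPM against 95.5, 57.1 and 98.3 CPM (-1.73 ± 0.35, adjusted p = 0.0834). ND-fed mice had 350 to 616 CPM of *Fam13a*, and the 3 diets did not overlap. The long noncoding transcript *2010016I18Rik* was at 4.96, 2.76 and 6.87 CPM against 1.13, 0.555 and 1.12 CPM (-1.55 ± 0.30, adjusted p = 0.0634).

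*Thbs1*, thrombospondin 1, was at 928, 823 and 1825 CPM on the 40% HFD and at 651, 237 and 353 CPM on the 60% HFD (-1.56 ± 0.55, adjusted p = 0.398). *Ces1d*, a carboxylesterase that hydrolyses triglyceride in adipocytes, was at 784, 883 and 1097 CPM against 473, 320 and 362 CPM (-1.26 ± 0.36, adjusted p = 0.281). Neither group overlapped the other, although mouse 1 of the 60% HFD came nearest for both genes. *Orm3* (-1.46), an acute-phase protein gene, *Lyz1* (-1.30), a lysozyme, and *Prtn3* (-1.29), proteinase 3 of granulocytes, were lower to a like degree. *Lyz1*, *Orm3* and *Ces1d* have close relatives in the genome, so the counting could have split reads between copies. *Dnah3* (-1.60), a dynein heavy chain of cilia, *St6galnac5* (-1.66), a sialyltransferase, *Krt14* (-1.42), an epithelial keratin, and *Chst4* (-1.33), a sulfotransferase, completed the group, with adjusted p from 0.284 to 0.539.

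**Figure D3:**
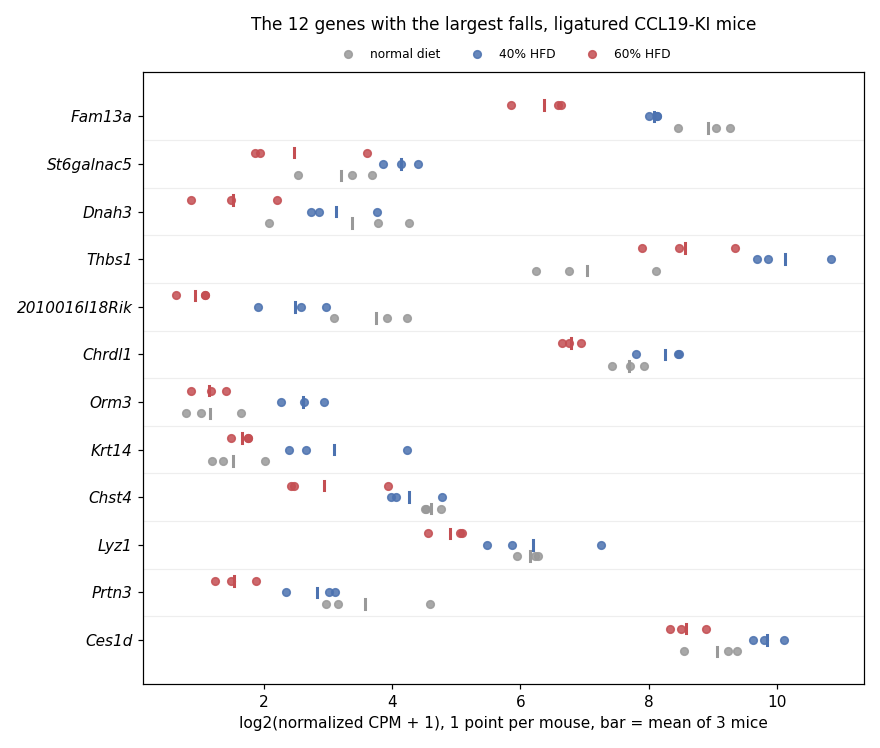
The 12 genes with the largest decreases whose groups did not overlap, as log2(normalized CPM + 1) with 1 point per ligatured CCL19-KI mouse and a bar at the mean, for the normal diet (grey), the 40% HFD (blue) and the 60% HFD (red). All red points lie left of the blue points of the same gene, and only *Chrdl1* reached an adjusted p below 0.05.

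Many cholesterol enzymes had a positive difference, although the list means of the diets overlapped. These were 4.64, 4.97 and 4.59 on the 40% HFD and 5.55, 5.21 and 4.83 on the 60% HFD. Of 21 genes of cholesterol synthesis and uptake, all tested, 1 was called, 8 met the study's criteria as higher and none as lower, against 2.65% of all genes. The groups lay apart for 10 of them as higher, against 9.01% of all genes, and for none as lower. Of the 21 genes, 18 had a positive difference, and the median was 0.44. *Lss*, which closes the sterol ring, was at 25.1, 25.4 and 24.5 CPM on the 40% HFD and at 60.2, 43.0 and 48.9 CPM on the 60% HFD (0.98 ± 0.19, adjusted p = 0.0634). *Insig1*, the sterol sensor partner that is itself induced by SREBP, was at 159, 143 and 186 CPM against 392, 242 and 351 CPM (0.99 ± 0.24, adjusted p = 0.196). The values on the 40% HFD were tight and mouse 1 of the 60% HFD was highest for both genes. *Cyp51*, the lanosterol demethylase, was at 20.8, 23.8 and 21.6 CPM against 47.3, 30.6 and 38.7 CPM (0.77 ± 0.18). *Pmvk*, phosphomevalonate kinase, was at 12.7, 11.5 and 12.8 CPM against 23.0, 18.8 and 25.2 CPM (0.80 ± 0.18). Differences of *Fdps*, *Dhcr7* and *Sqle*, which act before and after them in the chain, were 0.92, 0.69 and 0.65. By contrast, *Srebf2*, the regulator of the pathway, differed by 0.03, and *Fdft1*, squalene synthase, by -0.36. The liver also makes cholesterol, and with the hepatocyte list mean as a covariate the median of the list was 0.44 and 9 genes met the criteria. The hepatocyte list itself had a median difference of 0.00, so this covariate could hardly change the diet difference. A part of liver transcripts was not tested. The median of the cholesterol list was 0.68 without mouse 3 of the 60% HFD and 0.23 with the mesothelial list mean as a covariate. Without mouse 1 of the 60% HFD, 5 of its genes met the criteria as higher and 1 as lower.

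Since 8 of these genes were higher together, the bases upstream of their starts are shown for *Nsdhl*, *Lss* and *Insig1*, the members with the largest differences. The windows are the 250 bases before the start in RefSeq on GRCm38.p6, on the plus strand, at chrX:72918271-72918520, chr10:76531355-76531604 and chr5:28071162-28071411. Capitals mark CCAAT, here read as its reverse complement ATTGG.
Nsdhl: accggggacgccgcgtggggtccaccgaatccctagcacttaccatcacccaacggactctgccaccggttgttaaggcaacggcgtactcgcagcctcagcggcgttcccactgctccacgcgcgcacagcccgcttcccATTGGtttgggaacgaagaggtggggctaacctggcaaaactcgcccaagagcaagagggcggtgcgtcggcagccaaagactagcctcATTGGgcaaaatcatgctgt
Lss: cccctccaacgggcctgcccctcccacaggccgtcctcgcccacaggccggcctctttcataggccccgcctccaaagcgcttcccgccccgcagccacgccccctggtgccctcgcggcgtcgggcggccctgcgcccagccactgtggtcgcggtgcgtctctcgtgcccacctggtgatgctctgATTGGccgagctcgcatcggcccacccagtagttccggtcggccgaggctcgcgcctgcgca
Insig1: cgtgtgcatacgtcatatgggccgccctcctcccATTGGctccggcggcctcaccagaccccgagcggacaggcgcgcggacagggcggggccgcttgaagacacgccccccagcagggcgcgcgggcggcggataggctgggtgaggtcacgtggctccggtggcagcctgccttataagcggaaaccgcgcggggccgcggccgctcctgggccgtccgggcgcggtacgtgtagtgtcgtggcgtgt
The match ended 104 and 15 bases before the start of *Nsdhl*, 57 before that of *Lss* and 211 before that of *Insig1*. Windows were present for 13 of the 21 genes, and all 13 held CCAAT on either strand, as did 37.5% of the 27025 genes with a window. Of the 8 genes that met the criteria, 6 had a window. *Srebf2* and *Hmgcs1* (0.26), which did not meet them, held CCAAT as well. The letters CACCCCAC, the core of a sterol regulatory element, were in 1 of the 13 windows, that of *Hmgcs1*, and in 2.98% of all genes. It overlapped none of the 3 CCAAT matches there. These matches are a description of the letters in the window.

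Of 15 genes of de novo lipogenesis tested, 6 met the criteria as higher, against 2.65% of all genes, and none as lower. Of the 15 genes, 10 had a positive difference and the median was 0.61. The list means of the diets overlapped, at 7.53, 7.55 and 7.83 on the 40% HFD and 8.49, 7.79 and 8.17 on the 60% HFD. *Scd2*, a stearoyl-CoA desaturase, was at 148, 94.7 and 170 CPM on the 40% HFD and at 850, 430 and 764 CPM on the 60% HFD (2.28 ± 0.42, adjusted p = 0.0616). *Slc25a1*, the mitochondrial citrate carrier, was at 92.3, 106 and 129 CPM against 243, 186 and 226 CPM (1.00 ± 0.22, adjusted p = 0.117). *Acss2*, which makes acetyl-CoA from acetate, was at 55.3, 56.2 and 91.1 CPM against 181, 116 and 157 CPM (1.17 ± 0.26, adjusted p = 0.136). *Me1*, malic enzyme, was at 323, 297 and 369 CPM against 702, 487 and 830 CPM (1.00 ± 0.25). All of these lay apart between the diets, and mouse 2 was the lowest of the 3 on the 60% HFD. *Elovl6*, a fatty acid elongase, and *Acly*, ATP citrate lyase, also met the criteria (0.77 and 0.61), and the other 9 genes did not. *Acaca* and *Acacb*, the acetyl-CoA carboxylases, differed by -0.37 and -0.35. *Scd1*, the abundant desaturase of adipocytes, was at 49701, 32615 and 37469 CPM against 43386, 14478 and 39000 CPM (-0.44 ± 0.50). *Fasn*, fatty acid synthase, was at 1212, 850 and 2203 CPM against 3891, 1450 and 2899 CPM (0.95 ± 0.61), and these groups overlapped.

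**Figure D4:**
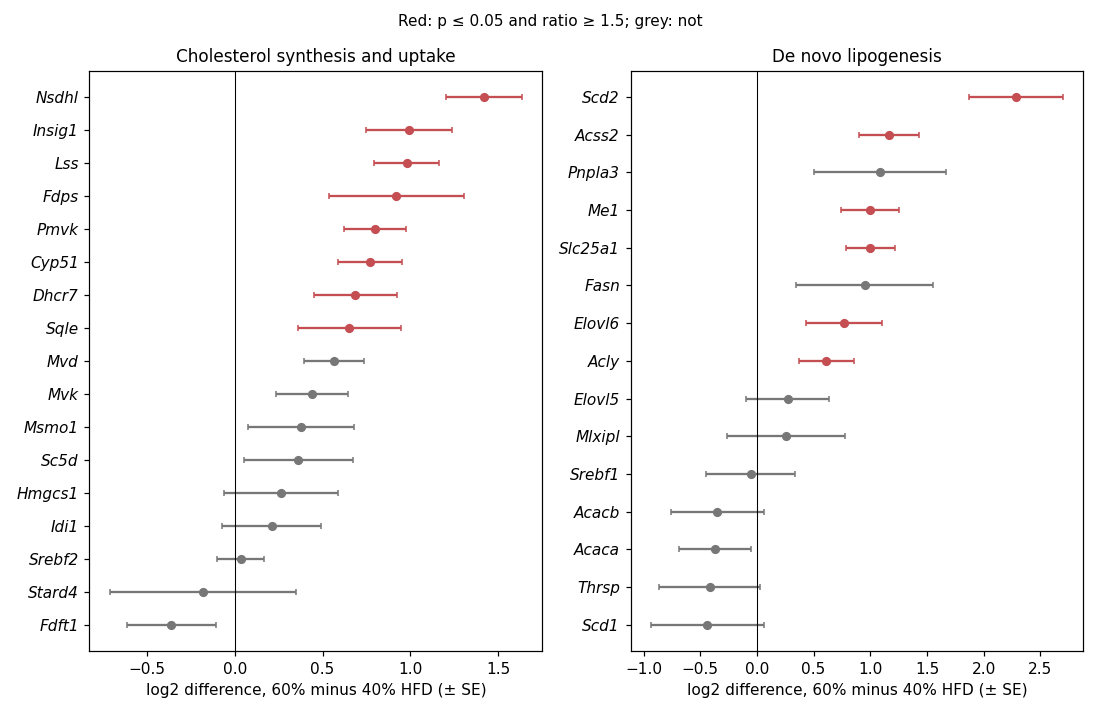
Log2 difference of 60% minus 40% HFD with its SE for 17 genes of the cholesterol list and the 15 of de novo lipogenesis, in ligatured CCL19-KI mice (3 against 3). Red genes meet the study's criteria, 8 for cholesterol and 6 for de novo lipogenesis, and 2 cholesterol genes (*Fdft1* and *Stard4*) and 5 lipogenesis genes, *Scd1* among them, lie below 0.

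In triglyceride synthesis, *Gpd1*, which makes glycerol 3-phosphate from glycolysis, was at 479, 500 and 396 CPM on the 40% HFD and at 1097, 788 and 982 CPM on the 60% HFD (1.05 ± 0.30, adjusted p = 0.280). *Pck1*, the enzyme of glyceroneogenesis, was lower, at 2479, 2626 and 3274 CPM against 1459, 1614 and 1123 CPM (-1.0 ± 0.37, adjusted p = 0.431). Of the 16 genes of fatty acid uptake and triglyceride synthesis, 2 met the criteria as higher and 1 as lower (median 0.13). For this list and the next ones, the shares over all genes were 2.65% as higher and 0.955% as lower. The 22 genes of fatty acid oxidation had a median of 0.26 (0.044 without mouse 3 and 0.57 without mouse 2 of the 40% HFD), and 1 met the criteria, *Cpt1b*, the muscle form of carnitine palmitoyltransferase (1.5, 1.39 to 4.21 CPM against 8.43 to 13.2 CPM). Lipolysis and lipid droplet genes had a median of -0.13 over 15 genes, with *Plin2* (0.83) and *Bscl2* (0.66) meeting the criteria. None of the 15 adipocyte transcription factors met them (median -0.05).

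Among the secreted products of adipocytes, *Lep* (leptin) was at 2292, 1376 and 573 CPM on the 40% HFD and at 2547, 2728 and 2485 CPM on the 60% HFD (1.08 ± 0.46, adjusted p = 0.493). The difference came with a wide spread on the 40% HFD, where mouse 3 was lowest, and the groups did not overlap. *Cfd*, adipsin, was at 1470.1, 999 and 3609.8 CPM against 475, 254 and 1176 CPM (-1.74 ± 0.61, adjusted p = 0.401). *Nnat*, neuronatin, was at 597, 383 and 647 CPM against 348, 205 and 302 CPM (-0.92 ± 0.35). *Adipoq* (adiponectin), at whose locus the transgene lies, was at 973, 572 and 1246 CPM against 929, 470 and 1178 CPM, a difference of -0.14 ± 0.37 with an exact two-sided permutation p of 0.6. *Ccl19* itself was at 20.8, 12.7 and 34.6 CPM against 22.7, 11.8 and 27.1 CPM (-0.11 ± 0.41, exact permutation p = 0.9). With 3 mice against 3, the smallest p of this exact test is 0.1. The study states that pseudogenes lie near *Ccl19*, so the counting could have split its reads between copies.

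All 16 markers of lipid-associated macrophages had a positive difference, with a median of 0.86, but only 4 met the criteria, as higher (2.65% of all genes did). The list means overlapped, at 6.95, 7.30 and 5.85 on the 40% HFD and 7.63, 8.10 and 6.74 on the 60% HFD. *Plin2* of the lipid droplet list is also a member and is counted in both. Which cells carried these transcripts was not tested. *Fabp5*, a fatty acid-binding protein of macrophages and adipocytes, was at 108, 100 and 64.5 CPM on the 40% HFD and at 185, 162 and 197 CPM on the 60% HFD (1.02 ± 0.20, adjusted p = 0.0781). *Ctsk*, cathepsin K, was at 28.0, 39.1 and 12.6 CPM against 50.5, 87.4 and 47.1 CPM (1.26 ± 0.46, adjusted p = 0.422). *Gpnmb*, a lysosomal glycoprotein of these cells, was at 103, 256 and 18.6 CPM against 259, 483 and 59.3 CPM (1.28 ± 0.88, adjusted p = 0.697). *Atp6v0d2*, a proton pump subunit, was at 28.1, 51.8 and 3.44 CPM against 66.3, 114 and 11.2 CPM (1.26 ± 0.92). *Spp1* (osteopontin) was at 8.35, 28.0 and 1.02 CPM against 9.81, 35.2 and 3.95 CPM (0.61 ± 0.93, exact permutation p = 0.7). For these 3 genes, mouse 3 was the lowest and mouse 2 the highest on either diet, and the diets overlapped. The median of the list was 0.31 without mouse 3 of the 40% HFD and 0.44 without mouse 2 of the 60% HFD. Of 22 lysosomal genes, some of them also on the macrophage list, 21 had a positive difference (median 0.37). Of the 22 genes, 9 lay apart as higher and 2 met the criteria, against 9.01% and 2.65% of all genes. The lysosomal median was 0.24 without mouse 3 of the 40% HFD. *Ctsd*, cathepsin D, was at 1372, 1138 and 1283 CPM against 1933, 1937 and 1886 CPM (0.61 ± 0.17, adjusted p = 0.279). General macrophage markers had a median of 0.25, with 1 of 16 meeting the criteria, *Cd68* (1.00).

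Of 8 neutrophil and monocyte markers tested, 3 met the criteria as higher, against 2.65% of all genes. A positive difference was found for 5 of the 8, against 52.3% of all genes. Summed over the list, values overlapped, at 119, 83.6 and 98.5 CPM on the 40% HFD and 94.0, 82.8 and 106 CPM on the 60% HFD. *S100a8*, a calgranulin, was at 3.99, 3.61 and 0.877 CPM on the 40% HFD and at 11.0, 13.5 and 27.3 CPM on the 60% HFD (2.28 ± 0.61, adjusted p = 0.232). *Chil3*, a chitinase-like protein of macrophages and neutrophils, was at 1.13, 0.354 and 0.439 CPM against 3.19, 2.88 and 5.96 CPM (1.59 ± 0.38). *Ccr2*, the chemokine receptor of recruited monocytes, went the other way, at 105, 68.6 and 88.7 CPM against 65.8, 50.1 and 59.5 CPM (-0.56 ± 0.37, adjusted p = 0.681). Chemokines met the criteria in 4 of 20 genes tested, all as higher, against 2.65% of all genes, with a median of 0.38. *Ccl8*, a ligand for monocytes, was at 9.55, 5.44 and 2.27 CPM against 17.1, 16.3 and 69.9 CPM (2.21 ± 0.71, adjusted p = 0.361). Mouse 3 of the 60% HFD stood above all others for *Ccl8*. *Ccl2*, the ligand of CCR2, was at 2.56, 2.90 and 3.44 CPM against 7.21, 7.27 and 3.50 CPM (0.77 ± 0.50, exact permutation p = 0.1), and *Lcn2*, lipocalin 2, at 4.74, 4.60 and 4.75 CPM against 8.88, 19.1 and 14.7 CPM (1.36 ± 0.34). *Tnf* reached at most 1.5 CPM in any of the 6 mice (exact permutation p = 0.2), and *Il1b* at most 1.41 CPM, below the filter for testing (exact permutation p = 0.3). Interferon-stimulated genes had a median of 0.11, and none of 18 met the criteria. T and NK cell markers had a median of -0.05 and B cell markers of 0.63, with 1 of 10 and 1 of 12 meeting the criteria as higher.

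All 18 genes of cell proliferation had a positive difference (median 0.55), against 52.3% of all genes. Of the 18 genes, 6 met the criteria as higher and 10 lay apart as higher, against 2.65% and 9.01% of all genes. Without mouse 2 of the 60% HFD, 3 of them met the criteria, and 4 without mouse 1. *Cdk1*, the mitotic kinase, was at 2.48, 2.19 and 2.12 CPM on the 40% HFD and at 5.59, 6.99 and 5.51 CPM on the 60% HFD (1.10 ± 0.22, adjusted p = 0.0762). *Tpx2*, a spindle assembly factor, was at 1.5, 1.98 and 1.68 CPM against 4.22, 5.77 and 3.13 CPM (0.96 ± 0.26). *Mki67*, the usual label of cycling cells, was at 13.6, 11.9 and 14.2 CPM against 23.1, 28.5 and 20.0 CPM (0.79 ± 0.42, adjusted p = 0.596). The levels were low, but the mice on the 40% HFD lay close together. Which cells of the tissue carried these transcripts was not tested.

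Matrix genes had mostly positive differences. All 17 collagens had a positive difference (median 0.61), and 5 met the criteria as higher, against 2.65% of all genes. *Col6a3*, the collagen VI chain that gives rise to endotrophin, was at 226, 159 and 274 CPM on the 40% HFD and at 357, 307 and 627 CPM on the 60% HFD (0.93 ± 0.34, adjusted p = 0.430). Mouse 3 of the 60% HFD was the highest and mouse 2 of the 40% HFD the lowest for *Col6a3*, *Col6a1* and *Col6a2*. Of 23 genes of matrix remodelling, 7 met the criteria as higher and 1, *Thbs1*, as lower (median 0.47), against 2.65% and 0.955% of all genes. *Tnc*, tenascin C, was at 4.66, 6.15 and 3.07 CPM against 19.2, 12.0 and 10.6 CPM (1.40 ± 0.33, adjusted p = 0.164). *Mmp2*, gelatinase A, was at 59.0, 52.7 and 55.6 CPM against 100.6, 150 and 132 CPM (1.16 ± 0.32, adjusted p = 0.266). The collagen median was 0.39 without mouse 2 of the 40% HFD and 0.40 without mouse 3 of the 60% HFD, and no collagen gene then met the criteria. The matrix remodelling median was 0.31 without mouse 2 of the 60% HFD. With the skeletal muscle list mean as a covariate, the collagen median was 0.60 with 1 gene meeting the criteria, and the matrix remodelling median was 0.22 with 2 genes higher and 2 lower.

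Lists close to the median of all genes were those of insulin signalling (-0.08), the circadian clock (-0.14), oxidative phosphorylation (0.08), hypoxia and angiogenesis (0.06), complement (0.03), inflammatory cytokines and their receptors (0.02), MHC class II (0.13), dendritic cells (-0.01), fat expansion (0.17), adipokines (0.07), the unfolded protein response (0.21) and osteoclast-related genes (0.21). Among them, *H2-DMb1*, a chaperone of MHC class II peptide loading, was higher at 32.3, 28.1 and 22.7 CPM against 64.1, 60.1 and 45.4 CPM (1.00 ± 0.27, adjusted p = 0.227). *C7*, a late complement component, was at 29.2, 23.2 and 26.2 CPM against 51.1, 78.4 and 183 CPM (1.75 ± 0.62). *Insr*, the insulin receptor, was at 219, 260 and 244 CPM against 200, 137 and 182 CPM (-0.49 ± 0.22, adjusted p = 0.525). Some members of these lists met the study's criteria although the medians were small. Of 11 dendritic cell markers 2 were higher, of 14 adipokines 2 were higher and 2 lower. Of 18 complement genes 1 was higher and 2 lower. In each of the other lists above, at most 1 gene met the criteria. Of all genes, 2.65% were higher and 0.955% lower by them. Smooth muscle markers had a median of 0.50 and kidney tubule markers of 0.07, and none met the criteria in either list. The smooth muscle list means were 3.12 to 3.42 on the 40% HFD and 3.52 to 4.35 on the 60% HFD, without overlap. The endothelial, progenitor and fibroblast, adipocyte, exocrine pancreas, testis germ cell, neuron and glia, and epididymal lists had medians of 0.27, 0.07, -0.20, 0.38, -0.07, 0.10 and 0.26. The exocrine pancreas median rests on only 2 tested genes of 10, and the epididymal median on 4 of 12.

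Among the genes that the study names in eWAT, none of the 12 tested was called or met the criteria, and the median was 0.42. The median was -0.05 without mouse 3 of the 40% HFD, 0.0025 without mouse 2 of the 60% HFD, 0.87 without mouse 2 of the 40% HFD and 1.02 without mouse 3 of the 60% HFD. Apart from *Tnf*, *Il1b* and *Ccl2*, which the study measured by qPCR, the list holds the study's top upregulated genes. They were picked on the 40% HFD, ligatured CCL19-KI against ligatured WT mice. That choice used the 40% HFD libraries compared here, so the list is not independent evidence. *Cyp2b9* was at 22.0, 105 and 1.54 CPM on the 40% HFD and at 41.3, 88.3 and 4.17 CPM on the 60% HFD (0.55 ± 1.28). *Onecut1*, a liver transcription factor, was at 7.52, 52.8 and 0.950 CPM against 18.7, 18.4 and 0.745 CPM (-0.14 ± 1.10). *Cyp2a22* (0.29), *Acot3* (-0.52) and *Kap* (-0.07) likewise spread widely within each diet, with exact permutation p of 0.7, 0.7 and 1. Hepatocyte markers moved with *Cyp2b9*, *Cyp2a22* and *Acot3* on the 40% HFD, where mouse 2 was highest and mouse 3 lowest for each of them, and their part was not tested. *Srp54b*, which has near-identical copies in the genome, was at 55.1, 40.9 and 51.5 CPM against 53.3, 53.0 and 56.6 CPM (0.15 ± 0.65, exact permutation p = 0.4).

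The same diet difference was then read in mice outside the 6 compared, although the ligatured WT mice were part of the same fit and shared its estimate of the spread. In ligatured WT mice, no gene was called in limma (0%), 1506 genes had an unadjusted p below 0.05, and 393 (2.36%) were higher and 334 (2.01%) lower by the study's criteria. In CCL19-KI mice without ligature, 24 of 16923 genes were called (0.142%), with 1502 (8.88%) higher and 1218 (7.20%) lower. Of the 16 genes called in ligatured CCL19-KI mice, 12 had the same sign in ligatured WT mice and 15 in CCL19-KI mice without ligature, where over all genes 59.7% and 57.8% did. *Ubd*, *Itgad* and *Otop1* differed by 2.78, 2.22 and 1.43 in ligatured WT mice and by 0.99, 1.72 and 1.21 in CCL19-KI mice without ligature. *Nsdhl* differed by 0.63 and 0.74, and *Chrdl1* by -0.58 and -0.60. *Fam13a* had the larger decrease elsewhere, -2.27 in ligatured WT mice and -2.19 in CCL19-KI mice without ligature. In contrast, *Lipf*, *Acoxl*, *Myh1*, *Mstn* and *Maoa* differed by -0.18 to 0.06 in ligatured WT mice.

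**Figure D5:**
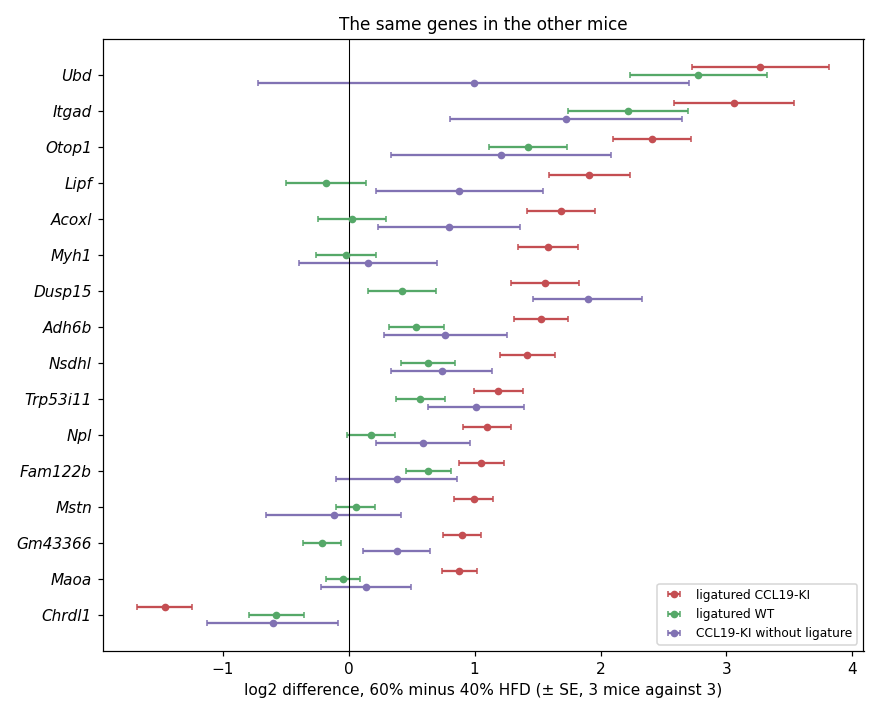
Log2 difference of 60% minus 40% HFD with its SE (3 mice against 3) for the 16 called genes, in ligatured CCL19-KI mice (red), ligatured WT mice (green) and CCL19-KI mice without ligature (purple). *Ubd*, *Itgad* and *Otop1* lie right of 0 in all 3 sets of mice, and *Lipf*, *Acoxl*, *Myh1*, *Mstn* and *Maoa* lie near 0 in ligatured WT mice.

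Of the 442 genes higher by the criteria, 76 met them as higher in ligatured WT mice, which is 17.2% of the former and 19.3% of the latter list. Of the 159 lower genes, 37 were shared (23.3% and 11.1%). With CCL19-KI mice without ligature, 61 higher genes (13.8% and 4.06%) and 44 lower genes (27.7% and 3.61%) were shared. Beside these shares, 8.88% of all genes tested in CCL19-KI mice without ligature were higher and 7.20% lower by the criteria. In ligatured WT mice these were 2.36% and 2.01%, and in ligatured CCL19-KI mice 2.65% and 0.955%. The cholesterol list had a median of 0.82 in ligatured WT mice and 0.02 in CCL19-KI mice without ligature. The lipid-associated macrophage list had medians of 1.05 and 0.35, de novo lipogenesis 0.30 and -0.41, and cell proliferation 0.00 and 0.43. The collagen list had medians of 0.22 and -0.37, skeletal muscle -0.02 and 0.96, and mesothelial markers 0.41 and -0.36. Hepatocyte markers had medians of 2.05 and -5.48. In ligatured CCL19-KI mice their median ran from -0.83 to 0.99 when a mouse was left out, and the difference between these sets of mice was not tested for the list.

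When the diet difference itself was compared between ligatured CCL19-KI and WT mice, no gene was called in limma (0%) or edgeR, 6 were called in DESeq2, and 755 had an unadjusted p below 0.05 in limma. *Lipf*, *Acoxl*, *Myh1*, *Mstn* and *Maoa* were thus not shown by limma to differ between the genotypes in their response to the 60% HFD. Between CCL19-KI mice with and without ligature, 1 of 17852 genes was called (0.00560%), with 2276 at an unadjusted p below 0.05. It was *Cnbd2*, a cyclic nucleotide-binding domain protein, which was at 3.39, 2.83 and 1.97 CPM on the 40% HFD and at 3.29, 4.16 and 2.68 CPM on the 60% HFD in ligatured mice (0.24 ± 0.19). Without ligature it was at 2.00, 2.27 and 3.14 CPM on the 40% HFD and at 19.9, 11.0 and 28.9 CPM on the 60% HFD, a difference of 2.51.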

How the data were processed

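RNA from eWAT was extracted from each mouse, depleted of rRNA and made into directional libraries. Per the submitters' notes and the study's methods, the authors trimmed the reads with Trimmomatic 0.38, aligned them with Bowtie2 within RSEM 1.3.0 and normalized the counts with edgeR. The deposited signal values are these normalized CPM, 1 column per mouse. The methods name mm10 and the notes GRCm39. The table holds gene IDs only, and no coordinate was taken from it. RefSeq windows on GRCm38.p6 were matched by symbol. The strand setting of the counting is not given in the sources used here. In each of the 36 libraries, 100% of the values came out as whole reads (tolerance 0.01 read, in proportion above 1000 reads), so reads could be recovered. Of 24750 genes, 124 had no symbol, and the values of 64 equalled those of another gene in every library.

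A gene was tested if 3 or more libraries had 1 CPM or more of it. The test was limma 3.58.1 on log2(value + 1), with an intensity trend in eBayes (R 4.3.3). One fit held the 18 ligatured mice, another the 18 without ligature (16923 genes), and a further one all 36 for the comparison of ligature (17852 genes). P-values were adjusted by the Benjamini-Hochberg method. The pseudocount makes the differences of low genes smaller. The genes named are the 12 largest rises and falls among called genes whose groups did not overlap, filled by the study's criteria, the genes the study names in eWAT, and members of the lists. Some list members are counted but not reported here by name. Single genes were also tested by an exact two-sided permutation test of 3 against 3. The members and lists were chosen with earlier results of these data known. The procedure was tested on simulated data. Alternatives included edgeR 4.0.16 and DESeq2 1.42.0 on the recovered reads, and 3 covariates were added after seeing the data.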

Additional observations from a re-analysis of the deposited data

Results flagged for a closer look

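*Cnbd2* was singled out because its diet difference in CCL19-KI mice differed with ligature, by -2.27 on the log2 scale (ligatured minus unligatured, adjusted p = 0.0325 in limma). All 3 mice on the 60% HFD without ligature lay above the 3 on the 40% HFD, and the ligatured groups overlapped. The gene overlaps others in the annotation, some on the opposite strand, and without the strand setting of the counting their reads cannot be told apart. The call was lost under several alternatives, with 0 genes called in edgeR. No group of 4 or more mice was present, and single mice were not tested for standing apart from their group.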

How the results depend on the processing

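Against the 16 genes called, the number of all genes called was 0 with a pseudocount of 0.1, 33 with a pseudocount of 5, 10 with no filter, 0 with a mean of at least 5, 9 with library totals, 5 with quantile normalization, 882 with sample quality weights (whose estimate did not reach its tolerance), 0 in edgeR (1595 genes at an unadjusted p below 0.05), 135 in DESeq2, 0 with the skeletal muscle or the mesothelial covariate, and 0 in the fit of the 6 compared or of all 36 mice. It was 0 to 9 when a mouse was left out. The replicate block gave 11, of which 8 were among the 16. Deviations of mice with the same number correlated at -0.18, 0.50 and 0.69, and the mice did not each correlate best with their own number. Deviations from a mean of 3 mice constrain one another, so a pairing by number cannot be decided from them. All 16 were among those called with median-of-ratios scaling, robust eBayes, the hepatocyte covariate (16, 16 and 23 genes), a pseudocount of 5 and sample quality weights. Of the 16, 15 were called in DESeq2, 10 with no filter, 9 with library totals, 5 with quantile normalization, and 6 and 7 where 9 were called without a mouse. No called gene reversed its sign under any alternative run.

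By the study's criteria, 237 genes were higher and 58 lower with a pseudocount of 5, 265 and 88 with a mean of at least 5, 780 and 550 with sample quality weights, and 140 and 33 with a ratio of 2. The lower genes numbered 255 with a pseudocount of 0.1, 255 in edgeR and 286 in DESeq2, and 105 to 316 without a mouse, the lowest without mouse 3 and the highest without mouse 2 of the 40% HFD. Genes whose diet difference differed between genotypes numbered 6 in DESeq2. Genes whose difference changed with ligature numbered 0 with a pseudocount of 0.1, no filter, edgeR or any of the 3 covariates, 5 with a pseudocount of 5, 2 with the replicate block, 586 with sample quality weights, 229 in DESeq2 and 0 to 2 without a mouse. The cause of these changes was not tested.

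The sign of some uncalled genes reversed. *Kap* differed by 0.27 with a pseudocount of 5, 1.69 in edgeR, 1.66 in DESeq2, and 0.64 with the mesothelial covariate. *Onecut1* differed by 0.58 with sample quality weights, and 0.47 with the skeletal muscle covariate. *Srp54b* differed by -0.12 with the skeletal muscle covariate. With the mesothelial covariate, *Cyp2b9* differed by -0.046 and *Cyp2a22* by -0.0070. Without a mouse, *Spp1* ranged from -0.40 to 1.52, *Cyp2b9* from -0.87 to 1.82, *Cyp2a22* from -0.70 to 1.02, *Onecut1* from -1.29 to 1.10, *Acot3* from -1.58 to 0.65, *Kap* from -1.69 to 1.07, *Ccl19* from -0.45 to 0.24 and *Adipoq* from -0.46 to 0.24. With 3 mice in each group and some called genes at 1 to 10 reads in a library, the depth limits the lowest genes.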

Other observations

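Of the 16 called genes, 4 (25.0%) lie on chromosome X in GENCODE M21, namely *Nsdhl*, *Maoa*, *Fam122b* and *Chrdl1*, and of all genes tested 509 (3.06%) do. Of the genes that met the study's criteria, 18 of the 442 higher ones (4.07%) and 5 of the 159 lower ones (3.14%) do, so the larger lists do not share this. This was noticed after the values were seen and is given as a description.

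Across all genes, the diet difference in ligatured CCL19-KI mice had a Pearson r of 0.247 with that in ligatured WT mice (16653 genes) and of 0.162 with that in CCL19-KI mice without ligature (16284 genes). Genes are not independent replicates, and no p is given. These comparisons share no mouse.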
